A study of Mus musculus with 39 samples.

Results

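Zygotes exposed to the histone deacetylase inhibitor (HDACi) MGCD0103 were compared with untreated zygotes at the 1-cell stage, gene by gene, and the genes that differed were then placed by their course over normal development. Of the 39 arrays of the series, 6 entered this comparison, 3 with MGCD0103-treated and 3 with untreated 1-cell embryos, and all 15992 genes that passed the detection filter were tested. Embryos came from in vitro fertilization of oocytes of B6D2F1 females, 8 to 9 weeks old and primed with gonadotropins, with sperm of ICR males of 15 to 20 weeks. MGCD0103 was given at 10 µM for 6 h, starting 4 h post-insemination (hpi), the embryos were then returned to normal medium, and RNA was taken at 12 hpi. Control embryos received no inhibitor. T247 embryos, used here for a side-by-side reading, had the same dose, exposure and collection time, and 2-cell embryos of each group were collected at 24 hpi. Each array held the pooled RNA of 100 embryos, so that differences between embryos within a pool were not measured. A pool with fewer responding embryos and one with a smaller response in every embryo cannot be told apart. Untreated GV and MII oocytes and 2-cell, 4-cell, 8-cell, morula and blastocyst embryos, with 3 arrays each, gave the course of each gene.

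Histone deacetylases (HDACs) remove acetyl groups from lysines of histones and other proteins, mostly within corepressor complexes, and an inhibitor raises acetylation at chromatin. MGCD0103 acts mainly on class I HDACs, and T247 was designed against HDAC3. After fertilization the zygote lives on maternal RNA while transcription from its own genome starts weakly in the 1-cell embryo and strongly in the 2-cell embryo, so that a 1-cell transcriptome mixes RNA inherited from the oocyte with the first new transcripts.

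Markers were read beside the labelled stage, and they did not settle it. All 12 oocyte and zygote markers were well above background, Agilent's flag for a spot clearly brighter than its surroundings, on all arrays of both groups. A zygote inherits such RNA, so these markers do not separate it from an oocyte. Of 4 late 2-cell markers on the array, 4 were well above background on all 3 control arrays and 3 on all 3 MGCD0103 arrays. Their summed level was 5.98 to 7.03 in control and 6.15 to 6.69 in MGCD0103 embryos. Of 10 cumulus and granulosa cell markers, 4 were well above background on all 3 control arrays and 5 on all 3 MGCD0103 arrays, with a summed level of 55.1 to 67.2 and 45.9 to 51.2, and of 7 sperm markers 1 in each group. The part of other cells in the results was not tested. Between 46.8 and 50.6% of spots were well above background on the control arrays and between 52.3 and 53.4% on the MGCD0103 arrays. Array correlations were 0.991 to 0.994 within control, 0.994 to 0.996 within MGCD0103 and 0.985 to 0.990 between the groups. All MGCD0103 arrays lay on slide 6 and the controls on slides 1 to 3, so that treatment and slide cannot be told apart for any result against control.

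Few genes reached the limits for a call between MGCD0103 and control at the 1-cell stage, and most of those were higher. A gene was called when its log2 fold change (LFC) in limma's fit reached 1 or -1 and its adjusted p lay below 0.05. Of the 15992 genes 654 (4.09%) were called, of which 550 were higher (3.44%) and 104 lower (0.65%) with the inhibitor. By limma's adjusted p alone, with no limit on the LFC, 1685 were higher and 484 lower. The rises had a median LFC of 1.34 and reached 4.61, with 76 of at least 2 and 12 of at least 3. The 3 arrays of each group did not overlap for 540 of the 550 and 95 of the 104, where groups did not overlap for 32.7% of all genes with MGCD0103 higher and 16.5% with it lower. Over all genes the median LFC was 0.10. With quantile normalization it was -0.03 and with scaling to the 75th percentile -0.07, and the share of calls that were higher went from 84.1% to 72.0% and 66.0%. With normexp background correction, which shrinks dim signals, 224 genes were higher and 10 lower. Changed genes were mostly dim in control embryos, with a median control level of 5.95 (log2 signal) for the rises and 4.28 for the falls against 8.55 for all genes. Of the 3998 genes with the lowest control levels 244 rose and 67 fell, and of the 3998 with the highest 70 and 3. In the control embryos 336 of the 550 risen genes were well above background on all 3 arrays and 128 on none, and in the treated embryos 496 were on all 3.

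**Figure D1:**
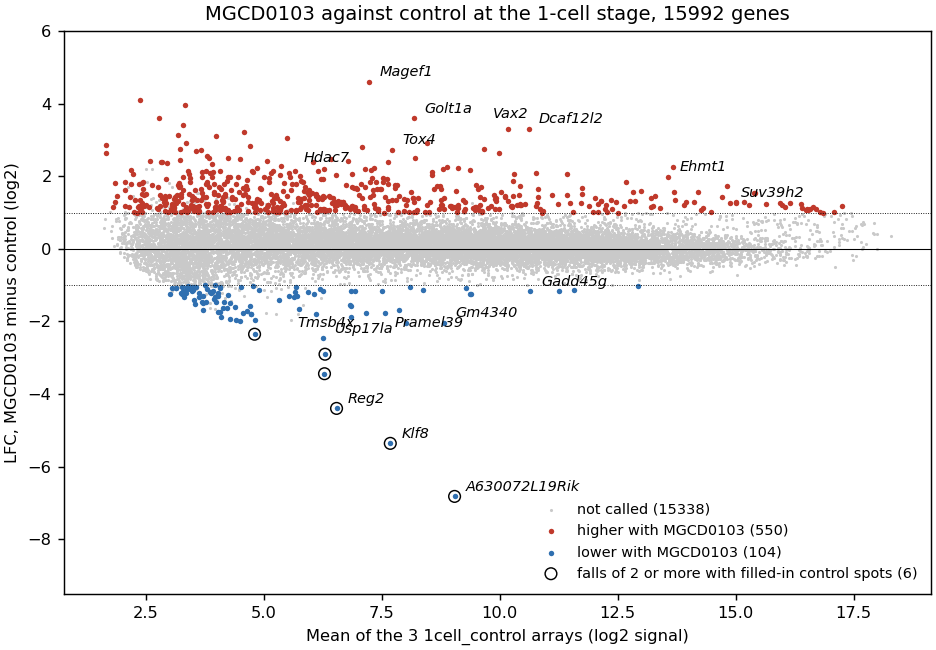
LFC of MGCD0103 minus control at the 1-cell stage (vertical, log2) against the mean level of the 3 control arrays (horizontal, log2 signal) for 15992 genes; dotted lines mark an LFC of 1 and -1, and rings mark 6 falls that rest on filled-in control spots. The 550 rises spread over all levels, while the 104 falls sit mostly at the dim end.

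Magef1, of the MAGE family of ubiquitin ligase partners, rose the most among genes measured in both groups. Its log2 signals were 6.94, 7.47 and 7.25 in control and 11.93, 11.81 and 11.74 in MGCD0103 embryos. The groups lay far apart, with the lowest treated array over 4 log2 units above the highest control array, an LFC of 4.61 ± 0.17 (SE) and an adjusted p of 2.44e-12. The probe lies at chr16:21332081-21332140 on mm9, the build of the array's annotation. Golt1a, a vesicle transport protein of the Golgi, was at 8.02, 7.97 and 8.53 in control and 11.87, 11.78 and 11.69 in treated embryos (LFC 3.60 ± 0.30, adjusted p 1.96e-07). Dcaf12l2, a WD-repeat protein related to substrate receptors of CUL4 ubiquitin ligases, was brighter in control at 10.36, 10.96 and 10.55 and rose to 14.02, 13.92 and 13.86 (LFC 3.31 ± 0.25, adjusted p 6.49e-08). Neither gene's groups overlapped.

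Vax2, a homeobox factor of the ventral eye, was at 9.89, 10.14 and 10.46 in control and 13.66, 13.52 and 13.22 in treated embryos (LFC 3.30 ± 0.20, adjusted p 3.30e-09). It was thus bright in normal zygotes and rose further without overlap. Mthfsd, which carries a folate enzyme-like domain, went from 5.34, 5.37 and 5.72 to 8.59, 8.56 and 8.48 (LFC 3.06). Tox4, an HMG-box protein of a phosphatase 1 complex, went from 7.69, 7.63 and 7.81 to 10.21, 10.15 and 10.97 (LFC 2.73), and the nucleolar protein Knop1 from 9.55, 9.56 and 9.89 to 12.65, 12.41 and 12.19 (LFC 2.75). None of these 3 overlapped between groups. The other large rises were of RIKEN transcripts, with LFCs of 3.23 for 2310005E17Rik, 2.91 for 2300009A05Rik, 2.85 for 4930447J18Rik and 2.80 for 4833415N18Rik, and of the keratin-associated Krtap4-1 at 2.72. 2310005E17Rik, 4930447J18Rik and Krtap4-1 were well above background on 1 of 3 control arrays.

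Few further probes of the risen genes were called. For the 141 risen genes with further probes that passed the filter, 121 of the 175 other probes had the same sign, 18 were called higher and 1 lower, with a median LFC of 0.17. The other probe of Tox4 had an LFC of 0.11, that of Ehmt1 0.10 and that of Suv39h2 0.12. Magef1, Golt1a, Vax2, Hdac7, Elavl4 and H4c8 had 1 probe that passed the filter.

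**Figure D2:**
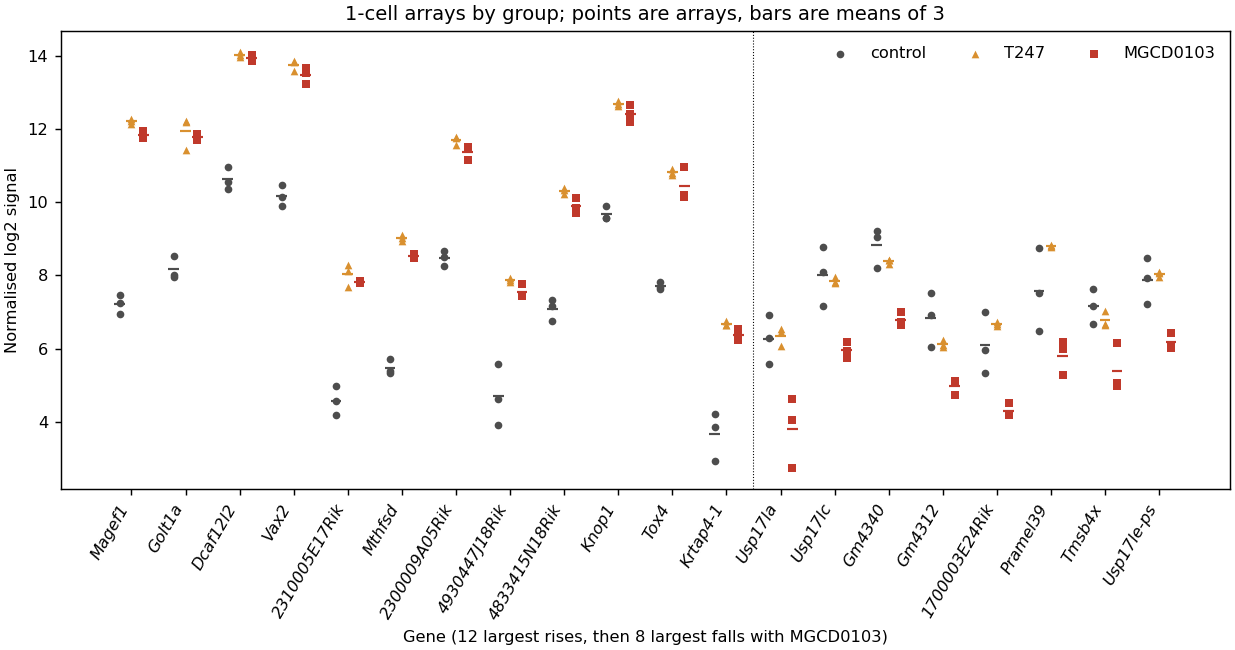
Normalised log2 signal (vertical) of each 1-cell array for the 12 largest rises and the 8 largest falls with MGCD0103 among genes measured in both groups (horizontal); circles are control, triangles T247 and squares MGCD0103 arrays, and bars are means of 3. For the 12 risen genes both inhibitors lie above control, and for most of the 8 fallen genes the T247 arrays lie within or near the control arrays, as for Usp17la, while the MGCD0103 arrays lie below.

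The largest computed falls did not rest on measured differences in every array. Of the 9 genes with a fall of at least 2, 6 (A630072L19Rik, Klf8, Reg2, Nr0b2, Mybpc2 and Zfp267) had at least 1 control spot that was not positive and significant and was filled in from the other arrays. A630072L19Rik had deposited signals of 4.22, 4.54 and 756 on the control arrays and 3.39, 3.62 and 3.84 on the MGCD0103 arrays, and the fill-in set the first control spots to 7.93 and 9.86 on the log2 scale, giving an LFC of -6.82. One control array thus carried the difference. Without the detection filter and its fill-in, none of these 6 falls was called (LFC -2.55 to -1.28, adjusted p 0.221 to 0.553). Their deposited unmeasured control signals were 3.67 to 4.55. Of all 104 falls, 52 had a filled-in spot on at least 1 of the 6 arrays and 70 were well above background on no MGCD0103 array, where 14531 of the 15992 genes were measured on all 6. Of the 550 rises, 75 had a filled-in spot.

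The remaining large falls were led by genes of multi-copy families that are activated in early embryos. Usp17la, a deubiquitinase of the Usp17-like family, was at 6.92, 5.57 and 6.29 in control and 4.61, 4.04 and 2.73 in MGCD0103 embryos (LFC -2.47 ± 0.38, adjusted p 0.000170), with 2 of 3 treated arrays well above background. Usp17lc was at 8.77, 7.17 and 8.08 in control and 6.18, 5.75 and 5.93 in treated embryos (LFC -2.05, adjusted p 4.41e-05). Neither overlapped, although the control arrays themselves spread by over 1 log2 unit, with replicate 1 the highest and replicate 2 the lowest. Gm4340 fell from 9.22, 8.19 and 9.05 to 6.99, 6.72 and 6.65 (LFC -2.03) and Gm4312 from 7.53, 6.05 and 6.93 to 5.05, 4.74 and 5.11 (LFC -1.87). The same order of control arrays recurred in Pramel39, a PRAME-like leucine-rich repeat protein, at 8.74, 6.47 and 7.52 in control and 6.17, 5.98 and 5.27 in treated embryos (LFC -1.77 ± 0.42, adjusted p 0.00729). Pramel37 had an LFC of -1.67 (adjusted p 0.0228), 1700003E24Rik of -1.81 and Usp17le-ps of -1.68. Pramel37 lost its call without control replicate 1 or MGCD0103 replicate 2. With normexp Usp17la, Gm4312, 1700003E24Rik and Pramel37 were not called. Of the 6 Usp17l genes tested, 4 fell and 0 rose (median LFC -1.43), and of 27 Pramel genes 4 fell and 0 rose (median 0.19), where 0.65% of all genes fell and 3.44% rose. These families were picked after their values were seen, and how far a probe also reads other copies of its family was not tested. The other probe of Usp17la had an LFC of 0.13 and that of Usp17lc 0.67, called higher, while those of Gm4312 and Pramel39 had -1.54 and -1.88.

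Outside these families, Tmsb4x, thymosin beta 4, which binds actin monomers, fell from 7.17, 7.63 and 6.67 to 6.15, 5.06 and 4.98 (LFC -1.76, adjusted p 0.000171). Gadd45g, a growth arrest and stress gene, fell from 10.86, 10.33 and 10.75 to 9.62, 9.35 and 9.46 (LFC -1.17 ± 0.22, adjusted p 0.00105). Rgcc, a regulator of the cell cycle, fell from 6.82, 5.92 and 5.99 to 5.20, 5.16 and 4.88 (LFC -1.16). All 3 were measured on every array and did not overlap, with Gadd45g the brightest. Rgcc lost its call without control replicate 1, and with normexp Tmsb4x, Rgcc, Reck and Gm9706 were not called. Reck, a membrane inhibitor of matrix metalloproteinases, fell by 1.29 on the log2 scale, and Gm9706 by 1.55.

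Sequence upstream of the start site is shown for 3 fallen and 2 risen genes that RefSeq's promoter table holds, because the fallen ones moved together. Capitals mark CG dinucleotides and TATAAA, both strands searched. Each is the 250 bases before the start on GRCm38.p6: Pramel37 chr5:94070546-94070795 (minus strand), Pramel39 chr5:94306797-94307046 (minus), Usp17la chr7:104856766-104857015 (plus), Golt1a chr1:133309573-133309822 (plus) and Ehmt1 chr2:24919610-24919859 (minus).
Pramel37: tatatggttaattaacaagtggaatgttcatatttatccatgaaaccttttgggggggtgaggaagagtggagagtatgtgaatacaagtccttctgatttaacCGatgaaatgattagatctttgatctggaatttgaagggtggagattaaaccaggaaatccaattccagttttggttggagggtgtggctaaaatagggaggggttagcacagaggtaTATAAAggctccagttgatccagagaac
Pramel39: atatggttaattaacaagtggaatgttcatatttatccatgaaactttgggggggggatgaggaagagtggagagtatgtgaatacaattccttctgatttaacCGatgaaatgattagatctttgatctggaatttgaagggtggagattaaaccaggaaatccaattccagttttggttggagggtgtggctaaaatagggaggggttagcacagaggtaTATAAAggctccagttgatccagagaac
Usp17la: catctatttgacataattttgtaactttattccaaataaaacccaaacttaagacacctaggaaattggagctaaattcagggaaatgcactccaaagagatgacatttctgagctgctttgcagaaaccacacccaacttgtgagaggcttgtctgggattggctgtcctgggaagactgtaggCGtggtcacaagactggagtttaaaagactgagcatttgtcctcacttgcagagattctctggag
Golt1a: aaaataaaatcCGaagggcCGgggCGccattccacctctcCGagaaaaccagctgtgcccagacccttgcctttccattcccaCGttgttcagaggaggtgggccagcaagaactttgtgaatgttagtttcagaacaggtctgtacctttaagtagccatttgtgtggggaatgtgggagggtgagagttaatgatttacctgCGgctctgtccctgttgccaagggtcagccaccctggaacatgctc
Ehmt1: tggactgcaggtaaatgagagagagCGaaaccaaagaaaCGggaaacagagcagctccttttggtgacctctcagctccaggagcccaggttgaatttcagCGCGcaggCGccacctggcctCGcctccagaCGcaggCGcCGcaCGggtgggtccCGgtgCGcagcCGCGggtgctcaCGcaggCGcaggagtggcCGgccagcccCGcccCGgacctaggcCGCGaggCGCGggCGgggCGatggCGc

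The Pramel37 and Pramel39 stretches matched at 212 of 250 positions (84.8%) when laid base on base, and both hold 1 CG and a TATAAA 28 bases before the start. The Usp17la stretch holds 1 CG and no TATAAA, the Golt1a stretch 6 CG and the Ehmt1 stretch 26. Over the 12564 promoters of tested genes in the table, the median was 13 CG (quartiles 6 and 21), 8.13% held at most 1 CG and 8.67% held TATAAA on either strand. These matches describe letters only. A comparison of risen genes' promoters with those of other genes is void and is not given, because 75.8% of the risen genes had an entry, below the required 80%.

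Among chromatin genes few members were called. Of 17 histone deacetylases and sirtuins tested, 1 rose (5.88%, against 3.44% of all genes) and 0 fell (median LFC 0.08). It was Hdac7, a class IIa enzyme that represses transcription largely through partner proteins, at 6.99, 7.06 and 7.37 in control and 9.47, 9.35 and 9.21 in treated embryos (LFC 2.20 ± 0.20, adjusted p 4.94e-07). The enzymes that MGCD0103 mainly acts on had LFCs of 0.36 (Hdac1), 0.39 (Hdac2) and -0.28 (Hdac3), none called. Of 40 subunits of HDAC corepressor complexes and of 30 acetyltransferases and bromodomain readers, 0 were called by limma, with an unadjusted p below 0.05 for 11 and 10 (27.5% and 33.3%, against 25.8% of all genes). Of 37 genes of H3K9 and H3K27 methylation, 3 rose (8.11%, against 3.44% of all genes) and 0 fell (median -0.01), all 3 writers of H3K9 methylation. Limma's unadjusted p lay below 0.05 for 15 of the 37 (40.5%, against 25.8% of all genes), 5 higher and 10 lower. Ehmt1, one partner of the enzyme pair that places H3K9me1 and H3K9me2 in euchromatin, rose from an already high 13.59, 13.45 and 13.68 to 15.67, 15.60 and 15.41 (LFC 1.99, adjusted p 6.25e-07). Suv39h2, which places H3K9me3, rose from 14.83, 14.73 and 15.07 to 16.24, 16.13 and 16.09 (LFC 1.28, adjusted p 3.18e-06). Both groups were tight and apart. Suv39h1 was dim in control, with 1 of 3 arrays well above background, and rose by 1.06. Its call was kept under 6 of 18 alternatives (LFC 0.26 to 1.26) and was lost without control replicate 1 or 2 or any 1 of the 3 MGCD0103 replicates. The call of Suv39h2 was lost with the mean of its probes (LFC 0.71).

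Of 37 genes with roles in neurons, 5 rose (13.5%, against 3.44% of all genes) and 0 fell, with a median LFC of 0.32 against 0.10. Elavl4, an RNA-binding protein of neurons, went from 8.32, 8.42 and 8.94 to 10.76, 10.61 and 10.45 (LFC 2.05). The sodium channel Scn8a went from 12.54, 12.54 and 12.96 to 14.55, 14.59 and 14.46 (LFC 1.85), and the channel subunit Scn3b from 4.81, 5.62 and 5.60 to 7.39, 7.44 and 7.32 (LFC 2.04). Scn8a was thus a bright zygotic signal and Scn3b a dim one. Scn2a rose by 1.03, and Scn1a, on no control array well above background, had a computed bound of 2.14-fold higher. Over the alternatives the LFC of Scn1a was 0.10 to 1.23. The call of Scn2a and that of Scn1a were each lost without control replicate 1 or 2 or MGCD0103 replicate 1, and with quantile normalization or scaling to the 75th percentile. The other probe of Scn8a had an LFC of 0.17 and that of Scn1a -0.84.

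Of 35 immune surface and MHC class I genes, 6 rose (17.1%, against 3.44% of all genes) and 0 fell, with a median LFC of 0.02 against 0.10. Cd4, the T cell coreceptor, rose from 11.07, 11.59 and 11.81 to 12.74, 12.68 and 12.84 (LFC 1.27, adjusted p 0.000116), and its other probe had an LFC of 0.33. Without control replicate 1 Cd4 was not called. Cnr2, the cannabinoid receptor of immune cells, rose by 1.77, Cd3e of the T cell receptor complex by 1.30 and the RNA sensor Tlr7 by 1.24. The natural killer receptor Klra1 rose by 2.51 from 1 of 3 control arrays well above background, and had 1 spot filled in. H2-T22 had a computed bound of 1.82-fold higher with 2 of 6 spots filled in. It was not called with normexp or without MGCD0103 replicate 2. Of 36 genes of DNA methylation and the germ line, Magef1 and the X-linked homeobox gene Rhox9 rose (5.56%, against 3.44% of all genes). Rhox9 had a computed bound of 3.87-fold higher, with 1 of 3 treated arrays well above background and 2 spots filled in. Its call was lost with normexp, with low signals as deposited and without the detection filter. Over the alternatives its LFC was 0.18 to 2.67. Piwil4 was called lower but was well above background on no array, had 3 spots filled in and lost its call without MGCD0103 replicate 1.

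Of 59 developmental transcription factors, 2 rose and 2 were called lower (median -0.04), 3.39% each against 3.44% and 0.65% of all genes. Lhx3, a LIM homeobox factor, had a computed bound of 1.66-fold higher, with 1 of 3 treated arrays well above background and 2 of the 6 spots filled in. Its call was lost without control replicate 2 or MGCD0103 replicate 3. It was also lost with normexp, with low signals as deposited and without the detection filter (LFC 0.21 to 2.29 over the alternatives). Olig2, of the oligodendrocyte lineage, had a computed bound of 2.27-fold lower with 1 of 3 control arrays well above background. Six3 was well above background on no array and had 1 spot filled in. These calls except Vax2 therefore lie at the detection limit. Of 34 early genome activation genes, 2 rose (Tdpoz2 by 1.65 and Tmem92 by 1.58) and 3 fell (Usp17la, Usp17lb and Usp17lc), with a median of 0.18. These were 5.88% and 8.82%, against 3.44% and 0.65% of all genes. Usp17lb lost its call without control replicate 1 or MGCD0103 replicate 2. Tdpoz2 was well above background on 1 of 3 control arrays. Its call was lost with normexp and with the authors' series matrix values, and over the alternatives its LFC was 0.45 to 2.08. Zscan4a, Zscan4c, Zscan4e and Zscan4f, which mark the 2-cell embryo, had LFCs of 0.26, 0.22, 0.11 and 0.25, none called.

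Of 38 maternal effect and oocyte genes, whose RNA the zygote inherits, limma called 0, with LFCs from -0.50 to 0.71 and a median of 0.12. An unadjusted p below 0.05 was found for 8 (21.1%, against 25.8% of all genes). Of 34 replication-dependent histone genes 1 rose (2.94%, against 3.44% of all genes), H4c8 by 1.83 (adjusted p 4.34e-08), and the median was 0.49. An unadjusted p below 0.05 was found for 19 (55.9%), all of them higher. Over all genes 2989 of the 4132 with such a p were higher. Of 49 cell cycle genes 1 rose (2.04%), the mitotic kinase Cdk1, from 6.08, 4.32 and 6.05 to 6.85, 7.14 and 6.83 (LFC 1.45, adjusted p 0.00461). Control replicate 2 was the low array, and 2 of 3 control arrays were well above background. Without control replicate 2 Cdk1 was not called. Its other probes had LFCs of 0.49 and -0.14. Of 31 p53 targets and cell cycle inhibitors, the death receptor gene Tnfrsf10b rose by 1.69 and Gadd45g fell (3.23% each, against 3.44% and 0.65% of all genes). Of 35 stress and chaperone genes limma called 0, with an unadjusted p below 0.05 for 9 (25.7%).

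The course over the 8 untreated stages placed each gene by the stage with its highest mean. A gene was flat if its stage means spanned less than 1 on the log2 scale, and dim if no stage had all 3 arrays well above background. Of the 550 risen genes 158 (28.7%) peaked in the GV or MII oocyte against 46.7% of all genes, and 57 (10.4%) at the 1-cell stage against 4.06%. The 2-cell stage was the peak of 46 risen genes (8.36%) against 5.63% of all, and 209 (38.0%) peaked later against 36.6%. A further 24 were flat (4.36% against 1.08%) and 56 dim (10.2% against 5.85%). Read by class, 13.95% of flat genes, 8.78% of genes peaking at the 1-cell stage, 2.39% at GV and 0.968% at MII rose. The 1-cell controls also take part in this placing. Without them 200 risen genes (36.4%) had an oocyte peak against 50.1% of all, and with scaling to the 75th percentile 79 (14.4%) did against 35.9%. Classes also differed in brightness, with a median control level of 11.4 for MII genes, 9.65 for 1-cell genes and 5.82 for 2-cell genes.

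The fallen genes were placed in the same way. Of the 104, 22 (21.2%) peaked at the 2-cell stage against 5.63% of all genes, and 9 (8.65%) at GV against 37.7%. At MII 0 peaked against 9.04% of all genes, and 27 (26.0%) were dim against 5.85%. Of the 27 falls measured well above background on all 6 arrays, 10 (37.0%) peaked at the 2-cell stage against 4.36% of the 12605 genes so measured. A change that leaves out the 1-cell arrays, from the MII oocyte to the untreated 2-cell embryo, was called up for 23.9% and down for 29.5% of all genes. Of the fallen genes 57 (54.8%) rose and 6 (5.77%) fell over it, and of the risen genes 159 (28.9%) rose and 92 (16.7%) fell. Usp17la had stage means of 1.84 at MII, 6.26 at the 1-cell and 12.37 at the 2-cell stage, Pramel39 of 2.29, 7.59 and 13.16, and Gm4340 of 5.60, 8.84 and 15.91. These genes were already rising in untreated zygotes and were lower with MGCD0103. Gadd45g rose earlier, from 3.15 at MII to 10.67 at the 1-cell stage. Tdpoz2 and Tmem92 also peaked at the 2-cell stage, at 11.88 and 14.73, yet rose with the inhibitor. The rise of Tdpoz2 started from 1 of 3 control arrays well above background and was not called with normexp.

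**Figure D3:**
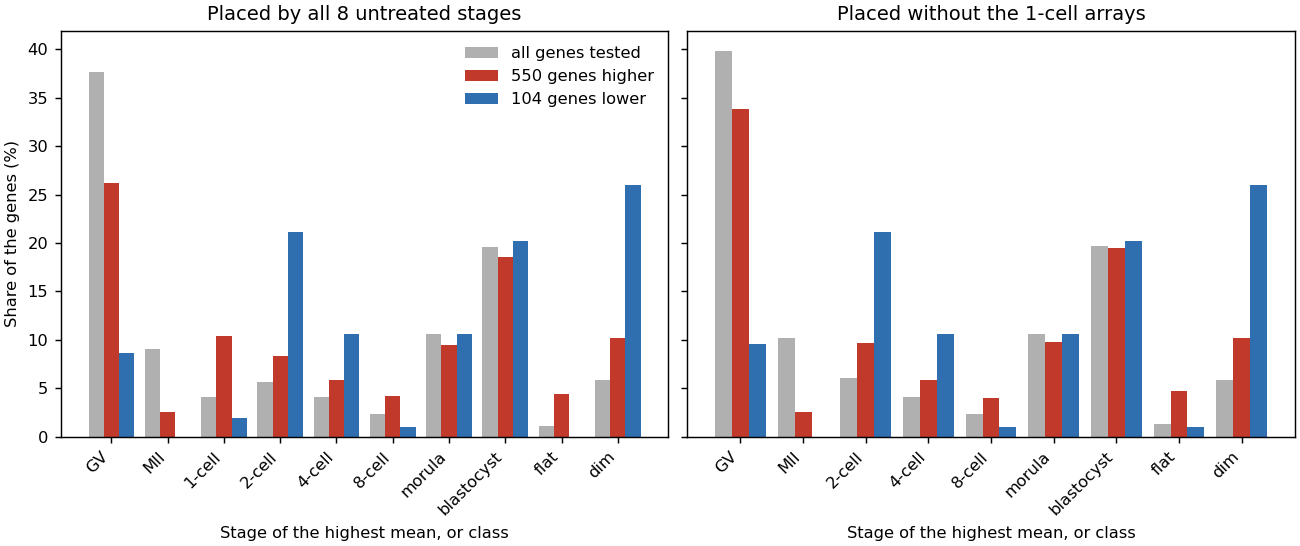
Share of genes (vertical, %) by the untreated stage of their highest mean, or flat or dim (horizontal), for all tested, 550 risen and 104 fallen genes, with the 1-cell arrays used for placing on the left and left out on the right. In both placings 21.2% of the fallen genes peak at the 2-cell stage, against 5.63% (left) and 6.07% (right) of all genes. The GV bar is lower for risen genes than for all genes in both.

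Among the risen genes with large changes, the classes were mixed. Golt1a, Dcaf12l2, Ehmt1, Suv39h2, Scn8a and Elavl4 peaked at the 1-cell stage in the placing with the 1-cell arrays, and all 6 moved to the GV class when the 1-cell arrays were left out. Fbxo17, an F-box protein, had its peak at the 8-cell stage and rose by 2.25, and F10, coagulation factor X, at the 4-cell stage and rose by 2.66. Tbx22, a T-box factor, peaked at MII and rose by 1.90, and 5730419F03Rik was flat and rose by 2.48.

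**Figure D4:**
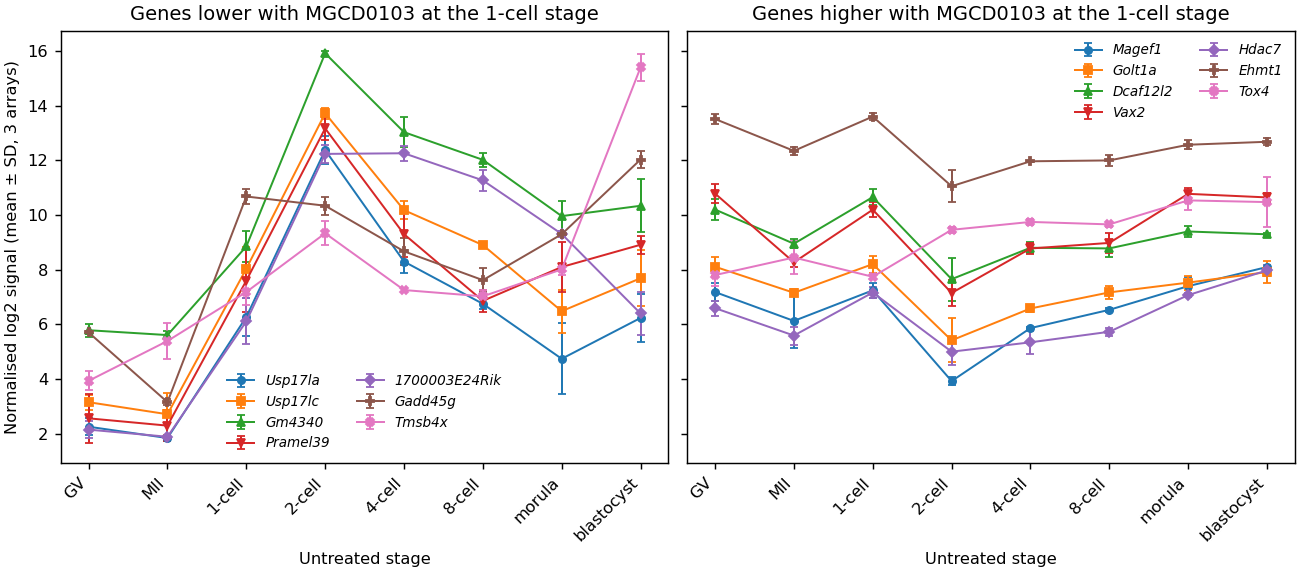
Mean ± SD of 3 untreated arrays (vertical, normalised log2 signal) at 8 stages (horizontal) for 7 fallen genes (left) and 7 risen genes (right). Several fallen genes, Usp17la and Pramel39 among them, go from about the floor at MII to their highest level at the 2-cell stage, whereas 6 of the 7 risen genes, all but Tox4, are at their lowest at the 2-cell stage.

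At 24 hpi, on other arrays of the same slides, 1943 genes were called higher (12.1%) and 2459 lower (15.4%) with MGCD0103. Slide and treatment thus cannot be told apart at this stage either. Of the 550 genes risen at the 1-cell stage, 325 (59.1%) were also higher and 20 lower, with a median LFC of 1.16 against 0.06 over all genes. Of the 104 fallen genes, 25 (24.0%) were lower and 19 higher. Without 2-cell control replicate 1 the count of risen genes that stayed higher was 271. By course, 52 of 57 risen genes with a 1-cell peak (91.2%) were again higher, where 22.2% of all genes of that class were. The share was 98 of 144 (68.1%, against 11.3%) for a GV peak, 53 of 102 (52.0%, against 12.9%) for a blastocyst peak and 9 of 46 (19.6%, against 9.56%) for a 2-cell peak. The untreated 2-cell arrays set the class and are also the control of the 2-cell LFC, so that a 2-cell peak goes with a lower LFC by construction, and these shares are a description only. Magef1 was at 3.70, 4.01 and 4.01 in 2-cell control and 9.44, 8.86 and 9.04 in 2-cell MGCD0103 embryos (LFC 5.20), Vax2 had an LFC of 4.16 and Hdac7 of 2.96. These genes thus stood above control at both stages.

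The change of LFC between the stages was tested by the interaction term of the same fit, which was called for 6.03% of all genes upward and 15.3% downward. Of the risen genes 102 had a lower LFC at the 2-cell stage, 8 a higher one and 440 no called change. Of the fallen genes 53 moved upward and 8 further down. The genes were chosen by their 1-cell LFC, which is part of the interaction term, so that a shift toward 0 follows in part from the choice, and these counts describe the genes without testing a change of the set. Cdk1 turned from a rise to 9.33, 9.17 and 9.70 against 10.66, 11.56 and 11.53 in 2-cell control (LFC -1.85, change -3.30). Rgcc turned from a fall to 11.33, 11.40 and 11.58 against 8.88, 8.26 and 8.21 (LFC 2.99, change 4.15), and Gadd45g to 12.02, 12.12 and 12.27 against 10.67, 10.28 and 10.03 (LFC 1.81, change 2.98). In all 3 the 2-cell groups were apart in the direction opposite to that at the 1-cell stage. Tat, tyrosine aminotransferase, rose at both stages, by 1.11 and then 2.50, and its rise at the 1-cell stage was not called without control replicate 1.

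**Figure D5:**
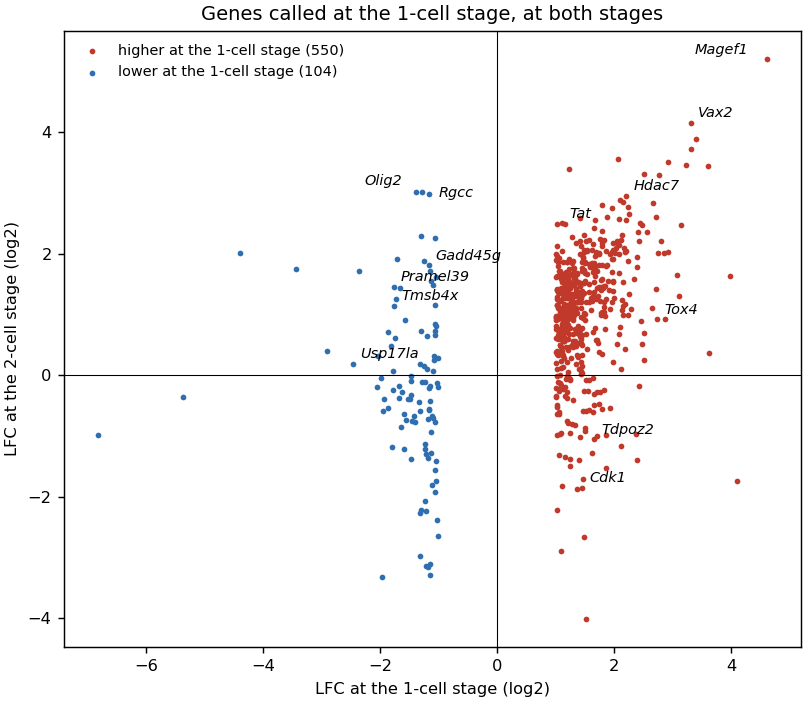
LFC of MGCD0103 minus control at the 2-cell stage (vertical, log2) against that at the 1-cell stage (horizontal, log2) for the 654 genes called at the 1-cell stage. Of the 550 risen genes 325 were called higher again, while the fallen genes spread to both sides of 0, with Rgcc, Olig2 and Gadd45g high at the 2-cell stage.

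T247 at the same dose and times was read beside MGCD0103. Both share the control arrays, so that the values against control are set side by side and only the direct test between the inhibitors leaves the control arrays out. Against control the 550 risen genes had a median LFC of 1.34 with MGCD0103 and 1.54 with T247, and the 104 fallen genes of -1.29 and -0.85. T247 itself had 902 genes higher (5.64%) and 148 lower (0.925%). This came to 6.57% of all genes. Among the 550 risen genes 482 were called higher with T247, and among the 104 fallen genes 41 lower and 1 higher. The direct test, 1 pair of inhibitors, called 44 genes (0.275%), 8 higher (0.05%) and 36 lower (0.225%) with MGCD0103 than with T247. Leaving out MGCD0103 replicate 1, 2 or 3 gave 5, 2 and 4 higher and 21, 19 and 25 lower, and leaving out T247 replicate 1, 2 or 3 gave 5, 7 and 6 higher and 20, 24 and 23 lower. Of the risen genes 1 was among the 8 and 0 among the 36, and of the fallen genes 20 were among the 36. The MGCD0103 arrays that chose these genes also enter the direct test, so that these counts follow in part from the choice. They are a description only. That the falls had a median nearer 0 with T247 follows in part from the same choice. The 95% interval of the difference lay between -1 and 1 for 404 of the 550 risen and 41 of the 104 fallen genes, against 13141 of all genes. It ran from -0.74 to -0.03 for Magef1, from -0.71 to 0.13 for Vax2, from -0.45 to 0.33 for Ehmt1 and from -0.87 to -0.02 for Hdac7, none of them called. The lower genes were led by the families above. Pramel39 was at 8.78, 8.80 and 8.82 with T247 (difference -2.99, adjusted p 0.00232), Pramel37 at 6.75, 6.71 and 7.02 (-2.75) and Usp17la at 6.08, 6.53 and 6.44 (-2.56, adjusted p 0.00347). The MGCD0103 arrays lay below all T247 arrays for these 3 genes. Against control, limma also called Pramel39 higher with T247 (LFC 1.23, adjusted p 0.0428), beside its LFC of -1.77 with MGCD0103. Mycs was also called lower, but it was well above background on no MGCD0103 or control array. Of the higher genes, Psd4 was well above background on 1 of 3 MGCD0103 arrays with 4 of 6 spots filled in, Polh, the translesion DNA polymerase eta, on all 3 MGCD0103 and no control array, and Zbtb11os1 and Gm16853 on 2 of 3. With normexp Polh, Zbtb11os1 and Gm16853 were not called against T247. Gm16853 lost its call when any 1 MGCD0103 or T247 array was left out. Polh and Zbtb11os1 lost theirs without MGCD0103 replicate 2 or 3 or T247 replicate 3. The 1-cell T247 arrays all lay on slide 4, so that here too slide and inhibitor cannot be told apart.

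Some probes were measured in 1 group only. MGCD0103 arrays had more spots well above background throughout, 52.3 to 53.4% against 46.8 to 50.6% on control arrays, and lay on another slide. How far this accounts for the counts below was not tested. Of all probes on the array, 690 (1.24%) were well above background on all 3 MGCD0103 and no control arrays, and 14 the other way round. With both groups reduced by replicate 1, 2 or 3 these counts were 1072, 859 and 2043, and 63, 83 and 25. Of the 301 with a gene name, 88 had a bound of over 2-fold and 14 of over 4-fold, the median was 1.69-fold, 222 were also measured on all 3 T247 arrays, 129 on all 3 MGCD0103 arrays of the 2-cell stage and 90 in no untreated stage. Asb3, of the ankyrin and SOCS box family, was at least 12.99-fold higher, the signal peptide peptidase-like Sppl2c at least 12.2-fold and the interferon-induced GTPase Gbp6 at least 11.2-fold. Mrgprg, an orphan G protein-coupled receptor, followed with at least 10.1-fold, Neurl2 with at least 8.61-fold and Prph2, a photoreceptor disc protein, with at least 8.24-fold. Another probe of Asb3 was above background in control. With control only there were Lgals4 at least 3.61-fold higher, Trim56 at least 2.98-fold, Tmem245 at least 2.89-fold and the lysosomal enzyme Gusb at least 2.41-fold. Another probe of Lgals4 and another of Tmem245 were above background in MGCD0103 embryos. Neurl2 was measured on all 3 untreated 2-cell arrays and was lower with MGCD0103 at that stage, whereas Mrgprg was measured on all arrays in no untreated stage.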

How the data were processed

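The arrays were 1-colour Agilent arrays with Cy3 label, and the authors deposited intensity values that Feature Extraction had background-subtracted and detrended within each array, without normalization between arrays (version 9.5.1.1 per the labels, 10.7.1.1 per the file headers). Each array had 59305 spots for 55681 probes, 0 of them saturated. In 1 MGCD0103 file the signals were rounded to 3 significant digits. A series matrix with log2 values that the authors made from positive and significant spots with fill-in and smooth quantile normalization served only as an alternative.

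Probes were named by accession (27318), symbol (3527) or synonym (553), and 24283 stayed unnamed. A probe was kept if each of 8 conditions had 1 or more arrays with a positive and significant spot, other spots (2.78% of values) were filled in from the covariance of the arrays (median error 0.21 log2 on hidden values), the brightest probe stood for a gene, and log2 values were smooth quantile normalized. Limma 3.58.1 (R 4.3.3, statmod 1.5.0) fitted 24 arrays of control, T247 and MGCD0103 embryos, with Benjamini-Hochberg adjustment over all genes of a comparison. On simulated data it recovered 34 of 40 genes raised by 1.5, 33 of 40 lowered by 1.5 and 40 of 40 raised by 2, with 3 false calls. The simulated noise was independent between arrays, without fill-in, detection filter or slide effect. False calls from filled-in spots or slides could therefore not appear in it. Bounds for probes measured in 1 group only used signals scaled to the 75th percentile. For tested genes the computed bounds used smooth quantile normalized values. They averaged all 3 arrays of the brighter group, filled-in spots and spots not well above background among them, and are not strict limits. Promoter letters are RefSeq's (GRCm38.p6), and 78.6% of tested genes had an entry. As this is under the required 80%, a comparison of promoters between risen, fallen and other genes is void and is not reported.

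The genes named are the 12 largest rises and 8 largest falls measured in both groups without overlap, up to 2 rises and 1 fall per course class, called list members, the leading probes measured in 1 group only, the leading genes of the test against T247, and genes named earlier for these data. Other genes were chosen after their values were seen. The members and lists were chosen with earlier results of these data known. Replicates are separate pools. Same-numbered control and MGCD0103 arrays of the 1-cell stage did not deviate together (r -0.0008, -0.019 and -0.005) and were not paired. Alternatives covered scaling, background, filter, probes, slide, replicate block and each array left out. With 3 arrays per group, their number limits the precision.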

Additional observations from a re-analysis of the deposited data

Results flagged for a closer look

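Among the named genes called at the 1-cell stage, the LFC of MGCD0103 against control differed between the 1-cell and the 2-cell stage for 27, by the interaction term of limma's fit. As they were chosen by the 1-cell LFC, which is part of that term, a shift toward 0 follows in part from the choice. Among genes that were higher at the 1-cell stage, the LFC at the 2-cell stage minus that at the 1-cell stage was -1.41 for Mthfsd, -1.81 for Tox4, -1.82 for Fcrls, -2.58 for Slco1c1, -2.26 for Smok3b, -1.66 for Suv39h1, -2.70 for Tdpoz2, -1.65 for Tmem92, -3.30 for Cdk1, -1.58 for H2-T22 and -1.28 for Tlr7. Of these genes that rose, Tat alone had an LFC called larger at the 2-cell stage, by 1.39. Among genes that were lower at the 1-cell stage, the change was 2.66 for Usp17la, 1.86 for Usp17lc, 2.34 for Gm4340, 1.33 for Gm4312, 2.29 for 1700003E24Rik, 3.23 for Pramel39, 2.91 for Tmsb4x, 1.51 for Usp17le-ps, 1.19 for Reck, 4.15 for Rgcc, 2.04 for Six3, 4.30 for Olig2, 2.98 for Gadd45g and 3.11 for Pramel37. The called fall of Piwil4 was larger at the 2-cell stage, with a change of -1.95. Six3 and Piwil4 were well above background on no 1-cell array of either group, and Reck and Piwil4 on no 2-cell array, so that each of these changes rests in part on background signals.

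Outside the genes tested, 389 probes without a gene name were well above background on all 3 MGCD0103 arrays and on no control array of the 1-cell stage, against 10 the other way round. MGCD0103 arrays had more spots well above background throughout and lay on another slide, and the part of this in the counts was not tested.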

How the results depend on the processing

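The 550 rises and 104 falls at the 1-cell stage depended on scaling and background. Quantile normalization gave 349 and 136, scaling to the 75th percentile 383 and 197, normexp background correction 224 and 10 and the series matrix values 319 and 21. Genes without filled-in values gave 419 and 43, detection on all 3 arrays of each condition 422 and 44, detection in both 1-cell conditions 680 and 218, and no limit on the LFC 1685 and 484. With an array left out there were 407 to 796 rises and 88 to 128 falls. The replicate block, with numbers that do not pair the arrays, gave 555 and 106. At the 2-cell stage, normexp gave 881 and series matrix values 971 genes higher, and arrays left out 1683 to 2439 higher and 1793 to 3455 lower. The change of LFC was called upward for 1710 genes with quantile normalization, 1537 with the 75th percentile, 544 with normexp and 472 with series matrix values, and with an array left out for 680 to 1813 upward and 1799 to 3704 downward, the highest of each without 2-cell control replicate 1.

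Against T247, normexp left 1 gene higher and 6 lower, series matrix values 2 and 2, and arrays left out 2 to 7 and 19 to 25. Of the 550 risen genes, 166 were called higher at the 2-cell stage with normexp, and 271 to 345 with an array left out, 271 of them without 2-cell control replicate 1. An oocyte peak was given to 79 risen genes with the 75th percentile and to 103 when genes spanning less than 2 counted as flat. By the positive and significant flag 93 probes were measured on control arrays only, and with a replicate left out of both groups 25 to 83, against 859 to 2043 on MGCD0103 arrays only. With series matrix values, which hold only the other probe of each gene, Usp17la had an LFC of 0.11 and Usp17lc of 0.65. Of 63 named genes tested against control 29 were called under every alternative that gave a value. Over 1192 values, of these genes and of the named genes tested against T247, 1079 kept side and direction, 111 lost the call and 2 reversed.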
